A study of Mus musculus with 8 samples.

Results

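The tricarboxylic acid (TCA) cycle was examined through 9 genes in tibialis anterior (TA) muscle of dystrophic *mdx5cv* and WT mice. The genes were chosen by symbol, as *Cs*, *Idh2*, *Idh3a*, *Idh3b*, *Idh3g*, *Ogdh*, *Suclg1*, *Fh1* and *Mdh2*, and all 9 were found among the 55401 genes of the expression table. All 9 passed the filter on low values, a mean of at least 10 normalized counts over the 8 samples, which left 13677 genes to be tested. The samples were whole TA muscles of male mice, all 6 months old and on the C57/Bl6 strain, with 4 wild type (WT) and 4 mdx5cv samples. The *mdx5cv* mouse, a model of Duchenne muscular dystrophy (DMD), carries a germline mutation in *Dmd*, the dystrophin gene, and no other allele or treatment is named in the labels. Total RNA was sequenced in stranded libraries. Nothing in the labels says that the replicates were separate animals, so the p-values measure the spread between these samples, which may be in part technical.

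The TCA cycle runs in the mitochondrial matrix and oxidizes acetyl-CoA from carbohydrate, fat and amino acids. It passes the electrons to NADH and to succinate dehydrogenase of the respiratory chain, so that its enzymes are abundant in oxidative muscle fibers. Citrate synthase begins the cycle, and its activity is widely used as a measure of mitochondrial content. Isocitrate dehydrogenase, 2-oxoglutarate dehydrogenase, succinyl-CoA ligase, fumarase and malate dehydrogenase catalyze later steps. All of these are encoded in the nucleus and imported.

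The libraries had between 13175524 and 14921057 reads, and each member had between 712 and 8740 reads in each muscle, so that counting error was small beside the spread between muscles. Values are normalized counts, which are reads divided by a size factor for each muscle. The test was that of limma on log2(normalized count + 1), a scale on which changes of weakly expressed genes come out too small. Log2 differences, also named log2 fold changes, are *mdx5cv* minus WT. A gene was called lower or higher at an adjusted p under 0.05 (Benjamini-Hochberg over all genes tested). *Dmd*, the mutated gene, had normalized counts from 6169 to 8155 in the WT and from 3461 to 4400 in the *mdx5cv* muscles, a log2 difference of -0.81. The muscles had the transcripts of fast fibers, of which TA is mostly made. The 12 fast fiber markers summed to a normalized count between 1240520 and 1437990 in WT and between 855890 and 1314700 in *mdx5cv*, and 5 of them (*Actn3*, *Tnnt3*, *Tnni2*, *Tnnc2* and *Ckm*) were called lower and 0 higher, with a median log2 difference of -0.30. Markers of other cells differed between the groups. The 9 macrophage markers summed to between 596 and 909 in WT and between 4469 and 10690.3 in *mdx5cv*, and all 9 were called higher. The 7 fibroblast markers summed to between 6844 and 10479 in WT and between 23715 and 43522 in *mdx5cv*, with 6 called higher. All 6 endothelial markers were called lower, with log2 differences from -0.88 to -0.61.

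Of the 9 TCA cycle genes, 4 were lower in *mdx5cv* muscle and none was higher. These were *Fh1*, *Idh3b*, *Suclg1* and *Idh3g*, and their mean normalized counts in *mdx5cv* were 58.5%, 59.2%, 63.0% and 68.4% of those in WT. *Cs*, *Idh2*, *Idh3a*, *Mdh2* and *Ogdh* were not called. Among all genes tested, 20.1% were called lower and 20.9% higher by the same rule. No member was called with a log2 difference of -1 or less, or of 1 or more. Among all genes tested 3.27% and 10.3% were, shares too small for none of 9 to set the members apart. The members had a median log2 difference of -0.45, against 0.00 over all genes tested. In bulk muscle, fewer cells of a type and less RNA per cell cannot be told apart. These directions also rest on the size factors. With each muscle scaled instead to the mean of 17 genes of mitochondrial import, channels and chaperones, none of the 9 was called lower. *Idh3g* then had a log2 difference of 0.015, and *Ogdh*, *Mdh2* and *Idh3a* were called higher, at 0.70, 0.47 and 0.38. Among all genes tested, 2.95% were lower and 61.1% higher under this scaling. Of the 17 genes themselves, 14 were called lower and 0 higher with the size factors.

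**Figure D1:**
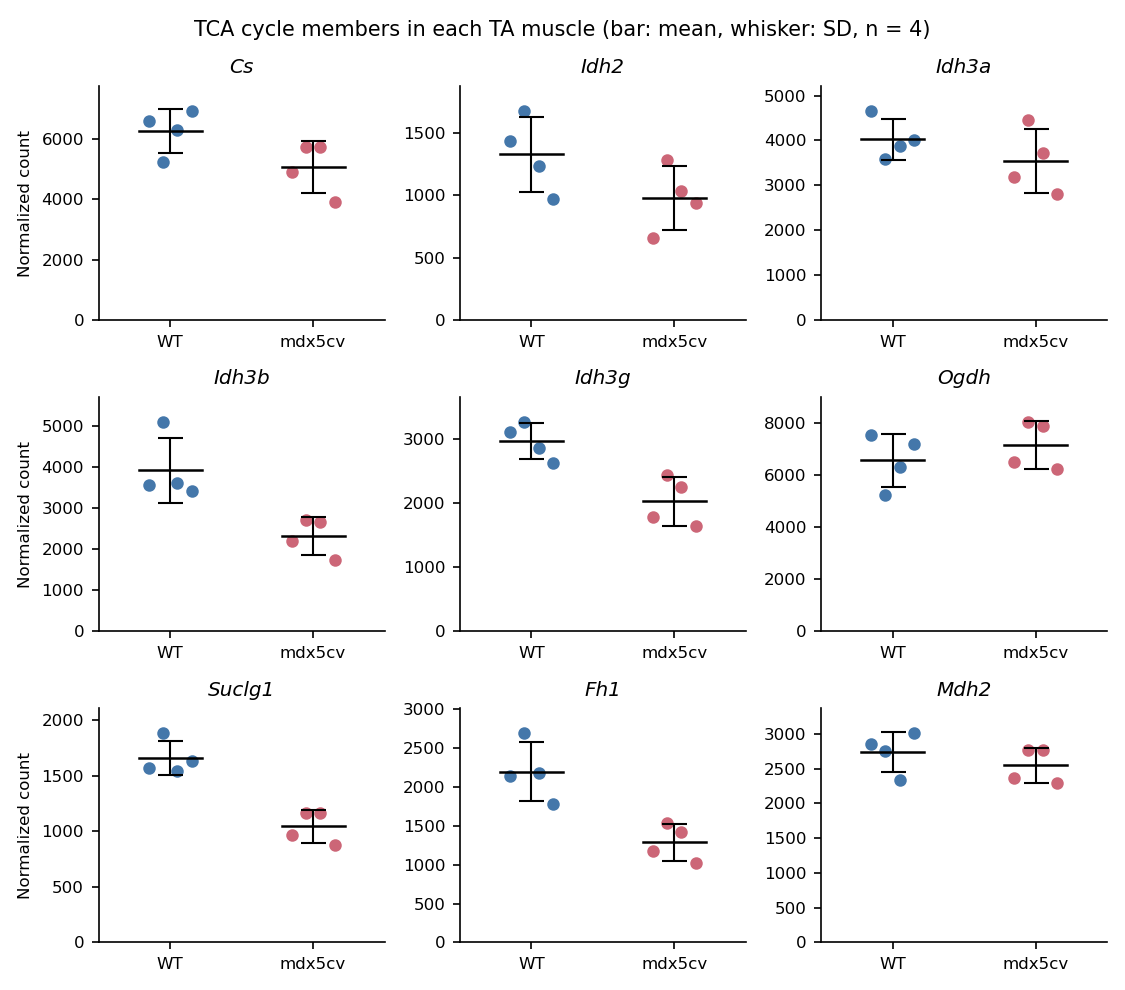
Normalized counts (vertical axes, from 0) of the 9 TCA cycle genes in each WT and mdx5cv TA muscle, with the mean (bar) and SD (whisker) of 4 muscles. The mdx5cv points lie below all WT points for Idh3b, Idh3g, Suclg1 and Fh1, and the groups overlap for the other 5 genes. With scaling to mitochondrial import genes none of these 4 is called lower, and Idh3g lies at 0.015. Under that scaling 2.95% of all genes tested are called lower and 61.1% higher.

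Citrate synthase, encoded by *Cs* (chromosome 10, 128337734 to 128362479, GRCm38), joins acetyl-CoA to oxaloacetate. Its normalized counts in WT replicates 1 to 4 were 6578, 5215, 6301 and 6911, and in *mdx5cv* replicates 1 to 4 they were 4900, 5725, 5721 and 3924. The *mdx5cv* replicates 1 and 4 lay below every WT muscle, whereas replicates 2 and 3 lay above WT replicate 2. The means were 6251 ± 735 in the WT and 5068 ± 855 in the *mdx5cv* muscles (SD, n = 4), a log2 difference of -0.31 (standard error 0.14, 95% interval from -0.61 to -0.01, adjusted p = 0.0932 from limma). With 1 muscle left out, the log2 difference ranged from -0.40 (without WT replicate 2, adjusted p = 0.0384) to -0.19 (without *mdx5cv* replicate 4, adjusted p = 0.213 from limma). *Cs* was also called with all muscles under median centring (-0.41, adjusted p = 0.0467), and its adjusted p ranged from 0.0384 to 0.870 over all alternatives. The related gene *Csl* and the pseudogene *Gm48254*, which align to *Cs* at 91.9% and 92.1% identity, had mean normalized counts of at most 1.10 and 4.63 in either group.

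Isocitrate dehydrogenase has an NAD-dependent form in the matrix, which serves the cycle, and an NADP-dependent form there, which supplies NADPH. The NAD form is made of a catalytic alpha subunit (*Idh3a*), a beta subunit (*Idh3b*) and a regulatory gamma subunit (*Idh3g*). Its subunits did not move alike. *Idh3a* (chromosome 9, 54586334 to 54604661) had normalized counts of 4653, 3581, 3870 and 4002 in the WT and 3189, 4462, 3729 and 2820.0 in the *mdx5cv* replicates. The groups overlapped, with *mdx5cv* replicate 2 above all WT muscles except replicate 1. The log2 difference was -0.20 (standard error 0.14, 95% interval from -0.50 to 0.11, adjusted p = 0.289 from limma). It ranged from -0.31 without *mdx5cv* replicate 2 to -0.09 without *mdx5cv* replicate 4, and was not called with any 1 muscle left out.

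*Idh3b* (chromosome 2, 130279309 to 130284547) had normalized counts of 3557, 5091, 3611 and 3413 in the WT and 2190.1, 2703, 2653 and 1735 in the *mdx5cv* replicates. All 4 *mdx5cv* muscles were below all 4 WT muscles, and WT replicate 2 stood above the other WT muscles. The means were 3918 ± 786 and 2320.1 ± 453 (SD, n = 4), a log2 difference of -0.76 (standard error 0.16, adjusted p = 0.00227 from limma). Without WT replicate 2 it was -0.63 and was still called. *Idh3b* shares 5 exonic bases with *Nop56* on the opposite strand, which is 0.146% of its exonic length.

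*Idh3g* (chromosome X, 73778963 to 73786897) had normalized counts of 3114, 3269, 2865 and 2633 in the WT and 1789, 2449, 2249 and 1641 in the *mdx5cv* replicates. All 4 *mdx5cv* muscles were again below all WT muscles. The means were 2970.2 ± 279 and 2032 ± 380.1 (SD, n = 4), a log2 difference of -0.56 (standard error 0.13, adjusted p = 0.00474 from limma). The values of all *mdx5cv* muscles fell below those of all WT muscles for 4 of the 9 members, and for 19.8% of all genes tested. No member had all *mdx5cv* values above all WT values, as 20.3% of genes did. *Idh3g* lost its call when every muscle was scaled to the same total, with a log2 difference of -0.20 and an adjusted p of 0.125, in a range from 0.000794 to 0.901 over all alternatives.

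The ratio of 2 transcripts within a muscle does not depend on the size factor, and 5 such ratios were compared by an exact permutation test, two-sided, in which 4 against 4 muscles can give no p below 0.0286. The log2 ratio of *Idh3b* to *Idh3a* was -0.39, 0.51, -0.10 and -0.23 in the WT and -0.54, -0.72, -0.49 and -0.70 in the *mdx5cv* replicates. The groups did not overlap, and the mean fell by 0.56 on the log2 scale, so that the ratio in *mdx5cv* was 0.677 of that in WT (exact permutation p = 0.0286, 0.0476 adjusted over the 5 ratios). WT replicate 2 carried part of this difference, which was -0.38 without it. The log2 ratio of *Idh3g* to *Idh3a* was -0.44 ± 0.22 in the WT and -0.80 ± 0.06 in the *mdx5cv* muscles (SD, n = 4), without overlap, and the ratio in *mdx5cv* was 0.776 of that in WT (exact permutation p = 0.0286, adjusted 0.0476). The difference was -0.37 on the log2 scale with all muscles and -0.26 without WT replicate 2. With 1 muscle left out, the unadjusted exact permutation p ranged from 0.0286 to 0.0571 for both ratios. The beta and gamma transcripts were lower relative to the alpha transcript in every *mdx5cv* muscle than in any WT muscle.

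*Idh2* (chromosome 7, 80094846 to 80115392) encodes the NADP-dependent mitochondrial enzyme. Its normalized counts were 1431, 1674, 1235 and 968 in the WT and 660, 1280.1, 1037 and 937 in the *mdx5cv* replicates. It varied more than the other members, with an SD of the log2 values of 0.34 in WT and 0.40 in *mdx5cv*, and the groups overlapped. The log2 difference was -0.45 (standard error 0.19, 95% interval from -0.87 to -0.03, adjusted p = 0.0812 from limma). Without *mdx5cv* replicate 1 it was -0.27 (adjusted p = 0.251), and without WT replicate 4 or without *mdx5cv* replicate 2 it was -0.59 and was called. *Idh2* was also called with all muscles under median centring (adjusted p = 0.0378) and with the replicate number as a block (adjusted p = 0.0355), in a range of adjusted p from 0.0258 to 0.715 over the alternatives. The log2 ratio of *Idh2* to *Idh3a* was -1.62 ± 0.39 in the WT and -1.88 ± 0.29 in the *mdx5cv* muscles (SD, n = 4, exact permutation p = 0.371). *Idh1*, the NADP-dependent enzyme of the cytosol, had normalized counts of 257 ± 52.9 in WT and 299 ± 17.9 in *mdx5cv* (adjusted p = 0.184 from limma). Relative to *Idh2* it was higher in *mdx5cv*, with a log2 ratio from -2.59 to -2.23 in the WT and from -2.04 to -1.12 in the *mdx5cv* muscles, a ratio 1.62 times that in WT (exact permutation p = 0.0286, 0.0476 adjusted over the 5 ratios). The difference was 0.69 on the log2 scale with all muscles and 0.51 without *mdx5cv* replicate 1, which had the lowest *Idh2*. With 1 muscle left out, its unadjusted exact permutation p ranged from 0.0286 to 0.0571.

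**Figure D2:**
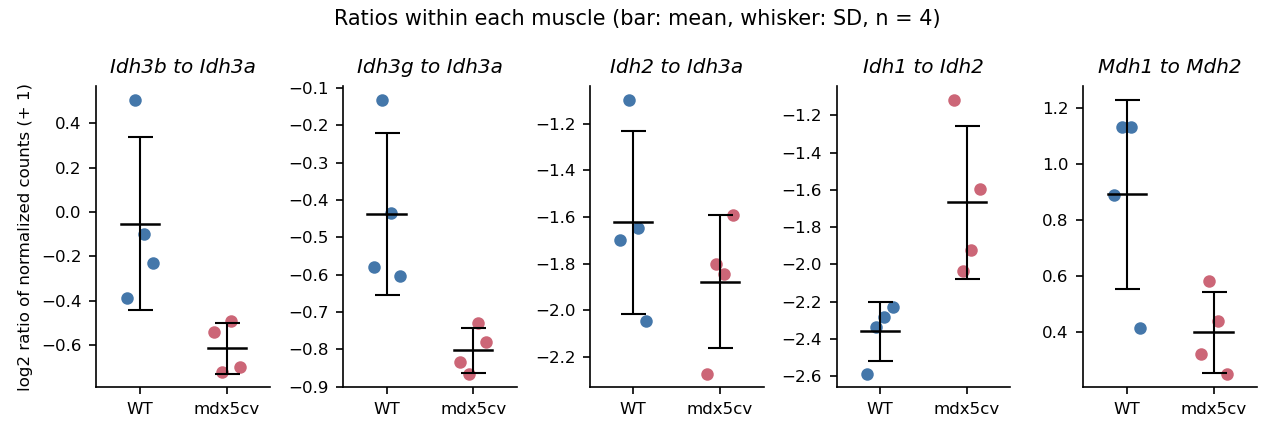
Log2 ratios of normalized counts within each muscle (vertical axes), for WT and mdx5cv, with the mean (bar) and SD (whisker) of 4 muscles. Idh3b to Idh3a and Idh3g to Idh3a lie lower, and Idh1 to Idh2 higher, in all 4 mdx5cv muscles, and the groups overlap for the other 2 ratios.

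*Ogdh* (chromosome 11, 6291633 to 6356642) encodes the first component of 2-oxoglutarate dehydrogenase, which makes succinyl-CoA. Its normalized counts were 7512, 5242, 6321 and 7177 in the WT and 6482, 8022, 7870.2 and 6215 in the *mdx5cv* replicates. The groups overlapped, and the *mdx5cv* replicates 2 and 3 lay above all WT muscles. The log2 difference of 0.13 was not called (standard error 0.14, 95% interval from -0.17 to 0.43, adjusted p = 0.492 from limma). It ranged from 0.02 without WT replicate 2 to 0.20 without WT replicate 1. *Ogdh* was the member whose fold change stood most above the others. Relative to the mean log2 value of the other 8 members it was 1.22 ± 0.30 in the WT and 1.83 ± 0.06 in the *mdx5cv* muscles (SD, n = 4), without overlap. As *Ogdh* was picked by its fold change, this is a description and no separate test. *Idh3b*, *Idh3g*, *Suclg1* and *Fh1* were also without overlap by this measure, in the other direction. *Ogdh* was called higher under equal totals (0.49), under equal totals without mitochondrially encoded genes (0.34) and relative to the fast fiber markers (0.47), with adjusted p from 0.000637 to 0.898 over the alternatives. Among all genes tested, 39.8%, 30.3% and 29.9% were called higher under these scalings, in that order.

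*Suclg1* (chromosome 6, 73248382 to 73276911) encodes the alpha subunit that both forms of succinyl-CoA ligase share. Its normalized counts were 1571, 1881, 1538 and 1633 in the WT and 964, 1164, 1167 and 877 in the *mdx5cv* replicates. No *mdx5cv* muscle reached the lowest WT muscle. The means were 1656 ± 155 and 1043 ± 146 (SD, n = 4), a log2 difference of -0.67 (standard error 0.12, adjusted p = 0.000602 from limma), the smallest adjusted p among the members in this fit.

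*Fh1* (chromosome 1, 175600374 to 175625635) encodes fumarase, which hydrates fumarate to malate. Its normalized counts were 2137, 2693, 2181 and 1775 in the WT and 1171, 1531, 1420.1 and 1020.45 in the *mdx5cv* replicates, so that the groups did not overlap. The means were 2197 ± 377 and 1286 ± 232 (SD, n = 4), a log2 difference of -0.77 (standard error 0.15, adjusted p = 0.00115 from limma), the lowest of the 9.

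*Mdh2* (chromosome 5, 135778480 to 135790398) encodes mitochondrial malate dehydrogenase, which returns oxaloacetate to the start of the cycle. Its normalized counts were 2850.2, 2755, 2333 and 3009 in the WT and 2358, 2765, 2769 and 2296 in the *mdx5cv* replicates, and 3 of the 4 *mdx5cv* values lay within the WT range. The log2 difference was -0.10 (standard error 0.11, 95% interval from -0.35 to 0.14, adjusted p = 0.493 from limma). It ranged from -0.18 without WT replicate 3 to -0.05 without *mdx5cv* replicate 4. *Mdh1*, the cytosolic enzyme of the malate-aspartate shuttle, fell from 5113 ± 836 to 3397 ± 666 (SD, n = 4), a log2 difference of -0.60 (adjusted p = 0.00799 from limma). The log2 ratio of *Mdh1* to *Mdh2* was 0.89 ± 0.34 in WT and 0.40 ± 0.15 in *mdx5cv*, with WT replicate 4 among the *mdx5cv* values (exact permutation p = 0.0857, 0.107 adjusted over the 5 ratios).

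Levels were also compared between genes per kilobase of exonic length. In WT the mean normalized count per kilobase was highest for *Ogdh* (1203 ± 186), followed by *Idh3b* (1145 ± 229.8), *Idh3g* (1099.7 ± 103) and *Cs* (1082 ± 127). *Idh3a* (794), *Mdh2* (768), *Fh1* (648), *Idh2* (513) and *Suclg1* (359) followed. The ranges of neighbors in this order overlapped in every case. Within a muscle, however, *Cs* exceeded *Idh3a*, *Fh1* exceeded *Idh2* and *Idh2* exceeded *Suclg1* in all 4 WT muscles. In *mdx5cv*, *Ogdh* (1310.0 ± 171) lay apart from *Cs* (877 ± 148), and the mean of *Idh3b*, 678 ± 132, was below those of *Mdh2* and *Idh3a*. The range of *Idh3b* overlapped both of theirs, however, and *Idh3a* exceeded *Idh3b* in only 2 of the 4 *mdx5cv* muscles. *Idh3b* was apart from *Fh1* (379 ± 68.5) there, and *Idh2* (378 ± 99.2) from *Suclg1* (226 ± 31.6). These lengths take in all annotated exons, also those that muscle may not use.

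The members varied together between muscles of the same group, but not all to the same degree. After the mean of each group was subtracted, *Idh3b*, *Idh3g*, *Suclg1* and *Fh1* had pairwise Pearson correlations from 0.851 to 0.944 over the 8 muscles. *Cs*, *Idh3a* and *Ogdh* had correlations with each other from 0.835 to 0.893. These sets were put together after the values were seen. Between them the correlations ran from -0.03 for *Idh3b* and *Ogdh* to 0.748 for *Idh3a* and *Idh3g*. WT replicate 2 was the highest WT muscle for every gene of the first set and the lowest for every gene of the second. Among the *mdx5cv* muscles, replicates 2 and 3 lay above replicates 1 and 4 for every gene of both sets. The part of WT replicate 2 in this grouping was not tested. Over all 36 pairs the median was 0.575 and 34 were above 0. These are descriptions over 8 muscles that share library preparation and size factors. The genes of the first set have exonic lengths from 2701 to 4617 bases and those of the second from 5072 to 5779 bases. The part of length in this grouping was not tested. In the comparison of the genotypes, a correction of each muscle for exonic length left the same 4 members lower, with log2 differences from -0.77 to -0.52. Outside all lists, the genes whose centered values were most like the mean of the members were *Acot13*, *Plaat3*, *Nr3c2*, *Atp5b* and *Coq10a*, out of 7537 genes that had a mean of 100 or more, with Pearson correlations from 0.965 to 0.995 over 8 muscles. Their log2 differences were -0.84, -1.05, -0.27, -0.59 and -0.67, and that of *Nr3c2* was not called (adjusted p = 0.123 from limma).

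Promoter sequences of RefSeq (GRCm38.p6), from 250 bases before to 50 after a transcript start, matched 8 of the 9 members, all except *Idh3a*. They were searched on both strands for TNAAGGTCA (estrogen-related receptors), the palindrome bound by NRF1, CCGGAAG (GABP and other ETS factors) and CCAAT (NF-Y), motifs linked to nuclear genes of mitochondria. CCGGAAG was found in *Idh3b* and *Idh3g*, both of which were lower, and in none of the other 6, and it occurs in 8.86% of all 32851 windows. CCAAT was found in *Cs*, *Idh2*, *Idh3b*, *Ogdh* and *Fh1*, which include called and uncalled genes, and occurs in 37.4% of windows. TNAAGGTCA (1.28% of windows) and the NRF1 palindrome (4.60%) had no match, which says only that these letters are not in these windows. The RefSeq start was 96, 123 and 169 bases from the start of the principal GENCODE transcript for *Idh3b*, *Suclg1* and *Mdh2*. For the others it was at most 42 bases away. *Ogdh* had 6 windows, of which 1 is described. The sequences of *Idh3b* (chr2:130284402-130284701), *Idh3g* (chrX:73786848-73787147) and *Fh1* (chr1:175625586-175625885), all on the minus strand, are shown as 3 of the lower genes. That of *Ogdh* (chr11:6291409-6291708, plus strand) is shown as the only member with a log2 difference above 0, which was not called. The sequences are written 5′ to 3′ on the strand of the gene, with motif matches in capitals.
Idh3b: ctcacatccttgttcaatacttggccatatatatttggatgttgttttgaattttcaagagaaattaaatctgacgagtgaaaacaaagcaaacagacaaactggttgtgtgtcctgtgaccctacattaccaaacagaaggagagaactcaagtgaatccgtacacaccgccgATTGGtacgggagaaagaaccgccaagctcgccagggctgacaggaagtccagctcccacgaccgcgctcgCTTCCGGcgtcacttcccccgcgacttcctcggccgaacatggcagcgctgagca
Idh3g: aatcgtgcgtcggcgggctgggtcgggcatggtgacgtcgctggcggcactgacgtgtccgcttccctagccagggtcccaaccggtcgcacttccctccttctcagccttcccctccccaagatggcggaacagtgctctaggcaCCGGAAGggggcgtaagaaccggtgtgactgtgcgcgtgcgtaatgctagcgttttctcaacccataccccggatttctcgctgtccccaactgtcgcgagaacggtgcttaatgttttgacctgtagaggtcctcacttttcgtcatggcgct
Fh1: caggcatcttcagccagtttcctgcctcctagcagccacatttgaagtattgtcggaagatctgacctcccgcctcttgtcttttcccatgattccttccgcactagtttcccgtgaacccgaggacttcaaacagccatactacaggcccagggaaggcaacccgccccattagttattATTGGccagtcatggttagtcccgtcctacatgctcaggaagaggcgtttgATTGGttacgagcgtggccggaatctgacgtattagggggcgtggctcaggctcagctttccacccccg
Ogdh: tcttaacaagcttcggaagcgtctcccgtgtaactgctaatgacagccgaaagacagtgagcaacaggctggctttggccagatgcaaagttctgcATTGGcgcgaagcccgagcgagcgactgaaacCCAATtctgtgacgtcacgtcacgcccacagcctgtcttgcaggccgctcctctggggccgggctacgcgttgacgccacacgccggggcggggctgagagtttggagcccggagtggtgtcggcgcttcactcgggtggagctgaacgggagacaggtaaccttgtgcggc
In *Idh3b* the ETS match begins 5 bases before the RefSeq start and the CCAAT match 76 bases before it. Both lie within the gene as annotated in GENCODE. In *Idh3g* the match begins 104 bases before the start. This stretch also leads into *Ssr4*, a subunit of the translocon-associated complex of the endoplasmic reticulum, which starts 131 bases from *Idh3g* and runs the other way. *Ssr4* had normalized counts of 315 ± 34.1 in the WT and 264 ± 17.5 in the *mdx5cv* muscles (SD, n = 4), a log2 difference of -0.25 (adjusted p = 0.0881 from limma), beside -0.56 for *Idh3g*. All 4 *mdx5cv* values of *Ssr4* lay below all its WT values, as was so for *Idh3g* and for 19.8% of all genes tested. The log2 ratio of *Idh3g* to *Ssr4* was from 3.15 to 3.38 in WT and from 2.61 to 3.34 in *mdx5cv*, so that the groups overlapped. This neighbor was looked at after the values were known.

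The other subunits of the cycle were described from a list of 9 genes, of which 6 were called lower, 0 higher and 3 not, with a median log2 difference of -0.61 against 0.00 over all genes tested. The succinyl-CoA ligase beta subunits, which pair with *Suclg1*, were both lower. The log2 difference of *Suclg2*, the GTP-linked subunit, was -0.94 and that of *Sucla2*, the ATP-linked subunit, was -0.71. In succinate dehydrogenase, *Sdhb*, *Sdhc* and *Sdhd* were called lower at -0.69, -0.61 and -0.64. *Sdha*, the flavoprotein subunit, was not (-0.21, adjusted p = 0.386 from limma). In 2-oxoglutarate dehydrogenase, the succinyltransferase *Dlst* was lower at -0.41, while *Dld*, the dihydrolipoyl dehydrogenase shared with other complexes, was at -0.30 with an adjusted p of 0.169 and *Ogdhl*, a paralog of *Ogdh*, was at 0.16 with an adjusted p of 0.667. Within isocitrate, 2-oxoglutarate and succinate dehydrogenase, some subunits were called and others were not. Differences between their fold changes were tested only for the ratios given above.

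**Figure D3:**
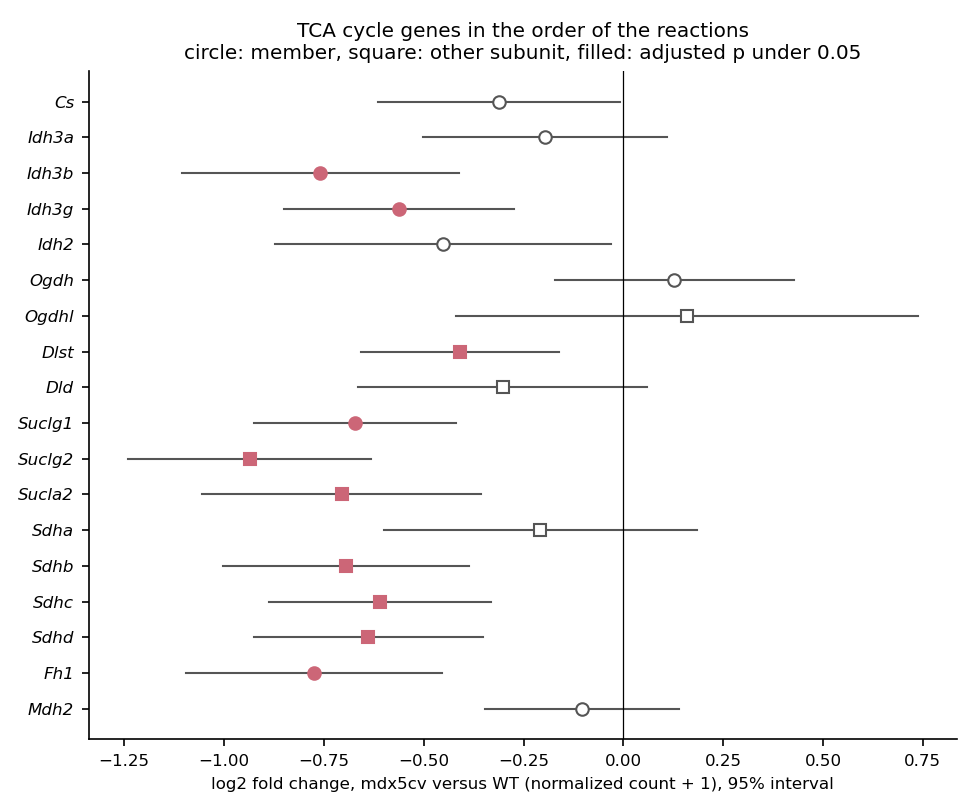
Log2 fold change of mdx5cv versus WT (horizontal axis) with its 95% interval for 18 genes of the TCA cycle, ordered by reaction from Cs at the top. Filled symbols have an adjusted p under 0.05 from limma. The 10 filled genes all lie below 0, and Ogdh and Ogdhl are the 2 points above 0. The values use the deposited size factors, and with scaling to mitochondrial import genes no member is called lower and Idh3g, Cs, Idh2, Idh3a and Mdh2 lie above 0. Under that scaling 2.95% of all genes tested are called lower and 61.1% higher.

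Of the 13 genes of pyruvate entry, which carry pyruvate into mitochondria or act in or on pyruvate dehydrogenase, 9 were called lower, 1 higher and 3 not, with a median log2 difference of -0.68. *Mpc2*, a subunit of the mitochondrial pyruvate carrier, was at -0.94. *Pdk4*, a kinase that inhibits pyruvate dehydrogenase, had a lower value still (-1.14) but varied so much between muscles that it was not called (normalized counts of 1403 ± 627 and 863 ± 991, SD, n = 4, adjusted p = 0.0950 from limma). Its value in *mdx5cv* replicate 2 (2349) lay above all WT muscles, and those in the other *mdx5cv* replicates (331 to 402) lay below them all. *Pdk3*, another such kinase, rose from 9.32 ± 4.46 to 31.7 ± 12.6, a log2 difference of 1.69, and *Pdk2* was at 0.20 and was not called. Of the 6 cytosolic counterparts, *Mdh1* and the malic enzyme *Me1* (-0.88) were lower, the citrate lyase *Acly* was higher (0.58), and *Idh1* (0.24), *Aco1* (0.08) and *Got1* (-0.36) were not called. Of the 14 genes of shuttles and anaplerosis, 7 were lower and 1 was higher. *Mmut*, a methylmalonyl-CoA mutase that supplies succinyl-CoA, was at -0.76 and the 2-oxoglutarate carrier *Slc25a11* at -0.69. *Me2*, the NAD-dependent malic enzyme of mitochondria, rose from 36.1 ± 4.07 to 87.3 ± 10.4 (SD, n = 4), a log2 difference of 1.25. The aspartate-glutamate carrier *Slc25a13*, at 1.02, was not called (adjusted p = 0.122 from limma).

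Of the 17 genes of mitochondrial import, channels and chaperones, 14 were lower and 0 higher, with a median log2 difference of -0.56. *Timm23*, the channel of the inner membrane translocase, fell most (-1.06), followed by the chaperonin *Hspe1* (-0.86), and *Tomm22* (-0.32) and *Tomm40* (-0.03), of the outer membrane translocase, were not called. Under equal totals, 17 of the 59 genes in these 5 lists were lower and 8 higher, where 6.00% and 39.8% of all genes tested were. With the size factors 38 were lower and 3 higher, where 20.1% and 20.9% of all genes were.

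**Figure D4:**
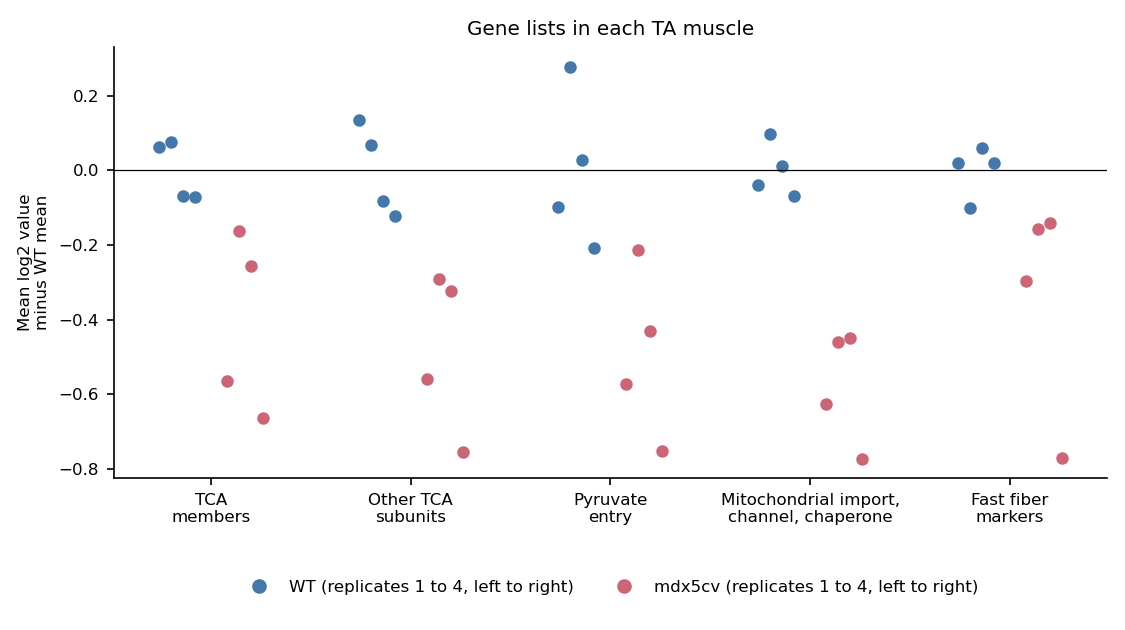
Mean log2 value of each gene list in each muscle minus the WT mean of the list (vertical axis), with replicates 1 to 4 from left to right within each group, under the deposited size factors. The lists shown are the members, the other TCA subunits, pyruvate entry, mitochondrial import, channel and chaperone genes, and fast fiber markers, in each of which the mdx5cv muscles lie below the WT muscles and mdx5cv replicate 4 is lowest.

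The 4 *mdx5cv* muscles differed among themselves. The mean log2 value of the 9 members was below the WT mean by -0.56 in replicate 1, -0.16 in replicate 2, -0.26 in replicate 3 and -0.66 in replicate 4, whereas the WT muscles lay between -0.07 and 0.08. Replicate 4 also had the lowest mean of the fast fiber markers, at -0.77 against -0.30 to -0.14 in the other *mdx5cv* muscles, and the highest of the macrophage markers, at 3.64 against 2.47 to 2.71. Replicate 1, with the next lowest members, was at -0.30 for the fast fiber markers. Without replicate 4 the same number of members, 4, was called lower and 0 higher. The part of fiber content in the result was not tested. With each muscle scaled to the mean of the 12 fast fiber markers, *Fh1* and *Idh3b* were called lower, at -0.43 and -0.42, *Suclg1* (-0.33, adjusted p = 0.0965) and *Idh3g* (-0.22, adjusted p = 0.247) were not, and *Ogdh* was higher, where 4.22% of all genes tested were lower and 29.9% higher in limma. These scalings, and that to mitochondrial import genes, were chosen after seeing the data.

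**Figure D5:**
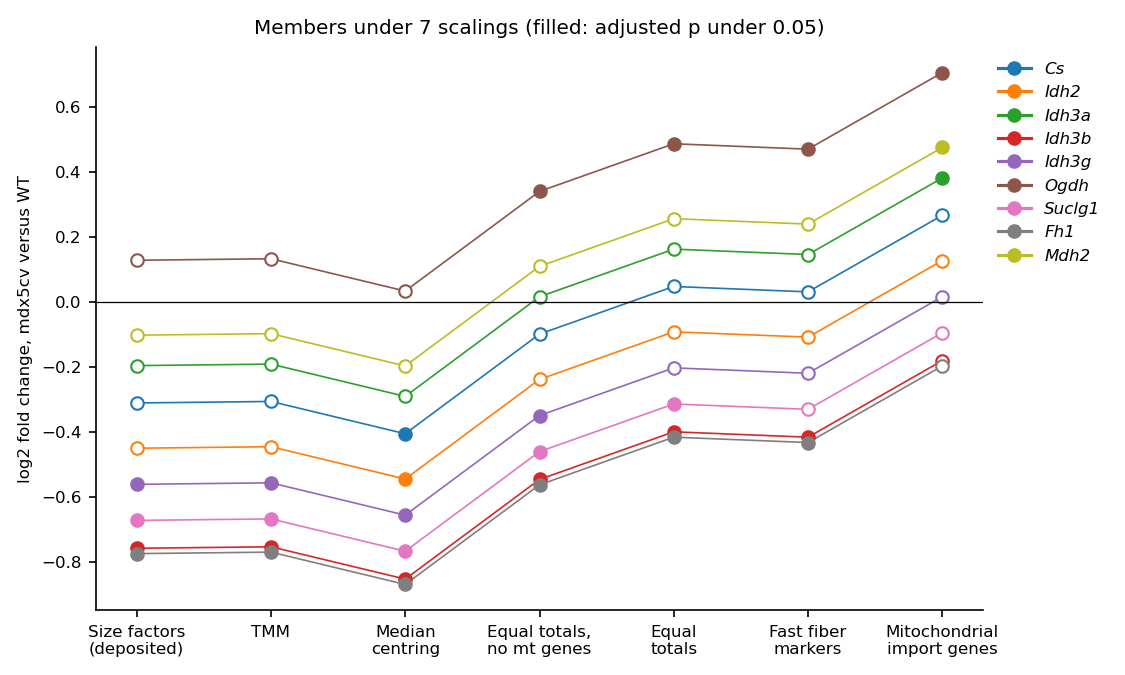
Log2 fold change of each member (vertical axis) under 7 scalings of the muscles (horizontal axis), with filled points at an adjusted p under 0.05 from limma. Each scaling shifts all genes of a muscle alike, so the order of the 9 genes is kept by construction, with Ogdh highest and Fh1 lowest. Between 1 and 6 of the genes lie above 0.

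The scalings moved all genes together. Over all genes tested, equal totals moved the median by 0.35, equal totals without mitochondrially encoded genes by 0.21, the fast fiber scaling by 0.34 and the scaling to mitochondrial import genes by 0.58. The share of all calls that were higher was 51.0% with the size factors, and 86.9%, 74.8%, 87.6% and 95.4% under these scalings. Under equal totals 3 members were lower and 1 higher, where 6.00% and 39.8% of all genes tested were. Under equal totals without mitochondrially encoded genes 4 were lower and 1 higher, where 10.2% and 30.3% were. With the scaling to mitochondrial import genes 0 were lower and 3 higher, where 2.95% and 61.1% were. The mitochondrial genome itself held between 30.0% and 38.7% of the reads in WT and between 25.3% and 32.1% in *mdx5cv*.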

How the data were processed

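Bulk RNA-seq of 4 mdx5cv and 4 WT TA muscles was analysed. The values the authors deposited are a signal, the normalized count of each gene (reads over the size factor of its library), without a filter on genes. Per the labels, the tools were Trim Galore 0.6.4, STAR 2.6.0c, featureCounts and DESeq2 1.26.0 with mm10. The paper's methods describe another set of libraries. Whether the counting used the strand is not given in the sources used here. Whole reads were recovered from 100% of the values (within 0.001 reads), and the factors equaled median-of-ratios factors. Replicates of a group differed beyond sampling noise (chi-square of 9.56 to 43.2 per degree of freedom).

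The main test used limma 3.58.1 (R 4.3.3) (lmFit, then two-sided eBayes statistics with the variance trend) on log2(normalized count + 1) over genes with a mean of at least 10, without covariates, and the recovered reads were also tested by edgeR 4.0.16 and DESeq2 1.42.0. Ratios were tested in Python 3.11.15 with exact permutation. In simulated data in which 200 of 13677 genes differed by 1 on the log2 scale, limma recovered 93.5% and called 14 unchanged genes. These changes were larger than that of any member, so the recovery does not bear on the uncalled members. The members and gene lists were chosen with earlier results of these data known. The genes named are the members, the other TCA cycle subunits, the cytosolic counterparts, the 2 lowest and 2 highest genes of each remaining pathway list, Dmd, and the 5 genes most like the members. Ssr4 was added after its values were seen. Mmut was matched by gene ID. A gene first listed among the cycle's subunits is not reported here and was left out of the counts. Slow fiber markers (1 of 8 lower, 5 higher), regenerating fiber markers (6 of 6 higher), adipocyte markers (4 of 6 lower) and erythrocyte markers (3 of 5 lower) were also counted. Exonic lengths and coordinates come from GENCODE M21 (GRCm38), where 55141 gene IDs were found with versions ignored.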

Additional observations from a re-analysis of the deposited data

Results flagged for a closer look

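Of 34 sets of 4 muscles (log2 values of the members and ratios, and 3 measures of the libraries, within each genotype), 2 had 1 muscle far from the other 3 by Dixon's ratio at the 95% level, and about 1.7 would be flagged by chance alone. *Idh3b* had a log2 normalized count of 12.31 in WT replicate 2, against 11.74 to 11.82 in the other WT muscles. In mdx5cv replicate 4, 22316 genes had reads, against 21316 to 21429 in the other mdx5cv muscles.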

How the results depend on the processing

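The 4 lower members (*Idh3b*, *Idh3g*, *Suclg1* and *Fh1*) kept their calls with pseudocounts of 0.1 and 10, with no filter or a stricter one, with TMM factors, median centring, equal totals without mitochondrially encoded genes, no variance trend, the replicate block, edgeR, DESeq2, the correction for exonic length and with each muscle left out in turn. The number lower ranged from 4 to 5 and the number higher was 0 with each muscle left out. The number lower was 6 with median centring, which adds *Cs* and *Idh2*, 2 with the fast fiber scaling, 0 with the scaling to mitochondrial import genes and 0 where a call also needs a log2 difference of 1 or more in size. The number higher was 1 under equal totals, with or without mitochondrially encoded genes, 1 with the fast fiber scaling and 3 with the scaling to mitochondrial import genes. The fast fiber, mitochondrial import and length alternatives were chosen after seeing the data.

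Signs reversed for uncalled members and for *Idh3g*. Under equal totals *Cs* was at 0.047, *Idh3a* at 0.16 and *Mdh2* at 0.26, and without mitochondrially encoded genes *Idh3a* was at 0.015 and *Mdh2* at 0.11. With the fast fiber scaling *Cs* was at 0.030, *Idh3a* at 0.15 and *Mdh2* at 0.24, and with the mitochondrial import scaling *Cs* was at 0.27, *Idh2* at 0.13, *Idh3a* at 0.38, *Idh3g* at 0.015 and *Mdh2* at 0.47. These scalings shift all genes by construction. Pathway genes called fell from 41 to 25 under equal totals, with 17 lower and 8 higher, where 6.00% and 39.8% of all genes tested were (20.1% and 20.9% with the size factors).

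The replicate numbers did not pair the muscles (correlations of same-numbered muscles from 0.03 to 0.15, and not every muscle correlated best with its own number). With the replicate block 5 members were lower and 0 higher, and the block leaves the mean differences of the ratios, such as -0.56 for *Idh3b* to *Idh3a*, as they are by construction. Permuting within the 4 pairs, the exact p was 0.125 for all ratios but *Idh2* to *Idh3a* (0.375), and 0.125 is the smallest it can give. Leaving out 1 muscle moved the *Idh3b* to *Idh3a* difference from -0.67 to -0.38, *Idh3g* to *Idh3a* from -0.42 to -0.26, *Idh2* to *Idh3a* from -0.40 to -0.08, *Idh1* to *Idh2* from 0.51 to 0.82 and *Mdh1* to *Mdh2* from -0.65 to -0.41, with no change of sign. The unadjusted exact permutation p then ranged from 0.0286 to 0.0571 for *Idh3b* to *Idh3a*, *Idh3g* to *Idh3a* and *Idh1* to *Idh2*. It ranged from 0.0286 to 0.143 for *Mdh1* to *Mdh2* and from 0.143 to 0.714 for *Idh2* to *Idh3a*. All members had at least 712 reads per muscle, so counting error was small for them.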

Other observations

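Over all genes tested, short transcripts had lower fold changes than long ones. The median log2 fold change was -0.13 in the fifth of genes with the shortest exonic length (up to 2378 bases) and 0.06 in the fifth with the longest (7554 bases or more). *Styxl1*, which starts 95 bases from *Mdh2* and runs the other way, had at most 2 reads in any muscle, while *Mdh2* had at least 2110.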
